A study of Mus musculus with 10 samples.

Results

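The genes described here are the glutathione and antioxidant enzymes of the mouse mammary epithelium, with their 2 main regulators. They were chosen by name: all glutathione transferases of the alpha, kappa, mu, omega, pi, theta and zeta classes, all glutathione peroxidases, peroxiredoxins and superoxide dismutases, catalase, the enzymes of glutathione synthesis and recycling, the thioredoxin system, Nqo1, Hmox1, Srxn1, Nfe2l2 and Keap1. This rule found 54 of the 24594 genes in the count table. It used no measured value, but the members were chosen with earlier results of these data known. RNA was sequenced from luminal cells, which line the mammary ducts, and from the contractile basal cells around them, in 5 libraries each. All libraries came from untreated wild type C57BL/6J mice, and no group carried a transgene or deletion. Glands were digested with collagenase and hyaluronidase, then with trypsin and dispase, and the cells were sorted on EpCAM and CD49f. The study's isolation protocol also lyses red blood cells and stains for TER-119, CD31 and CD45, antigens of red, endothelial and immune cells, though the labels name only EpCAM and CD49f for these libraries. The labels give no sex, age or pooling of animals, and they do not divide the luminal cells into progenitor and mature cells. In each of the 10 libraries the title gives the other cell type than the cell type label. The label was used for grouping, since the source name and the letter in the library description match it.

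Libraries held 13203146 to 17565471 counts in luminal and 13676558 to 17998165 counts in basal cells. Levels are given as CPM, counts scaled for depth with TMM factors, and 3 counts were worth 0.158 to 0.232 CPM. All 9 luminal markers tested were higher in the libraries labelled luminal (summed level 9021 to 13420 CPM against 962 to 1440 CPM), and all 7 basal markers were higher in those labelled basal (10380 to 14860 CPM against 26.5 to 78.9 CPM). The titles therefore go against the marker genes, whereas the cell type labels follow them. Markers of other cell types were low and unequal. The 7 fibroblast markers summed to 28.0 to 117 CPM in luminal and 28.6 to 46.9 CPM in basal libraries, and the 7 immune markers to 11.1 to 22.1 CPM and 33.9 to 59.7 CPM. Of the immune markers, Cd3e was at 0 in both groups. Of the 20 genes known to be induced by tissue dissociation, 7 were called in the luminal and 12 in the basal direction. Of all genes tested, 33.6% and 31.2% were called in these directions. The median log2 fold change of the 20 genes, luminal minus basal, was -0.79, so the list leaned to basal libraries. The part of dissociation in the differences of the members was not tested. In sorted bulk samples, fewer cells that express a gene and less RNA per cell cannot be told apart.

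Glutathione is a small thiol peptide that is built by glutamate-cysteine ligase (Gclc and Gclm) and glutathione synthetase (Gss), used by the peroxidases and transferases, and returned to its reduced form by glutathione reductase (Gsr). The thioredoxin system is a parallel source of reducing power, and it serves the peroxiredoxins. The transcription factor NRF2 (Nfe2l2) switches on many of these genes when its inhibitor KEAP1 is modified by oxidants or electrophiles. Superoxide dismutases turn superoxide into hydrogen peroxide, which catalase, the glutathione peroxidases and the peroxiredoxins remove.

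Several of these enzymes carry the amino acid selenocysteine in the active site, which is encoded by the codon TGA, elsewhere a stop codon. A TGA inside the reading frame was found in 6 members, each of which was called, 4 in the luminal and 2 in the basal direction. Of all genes tested, 33.6% and 31.2% were called in these directions, so the count is no trait of these enzymes. The call of Gpx4 was lost in several fits with a library left out. The coding sequence around the TGA codon is shown because it separates the peroxidases by catalytic residue. The sequences come from the GENCODE M21 transcript of each gene (mouse build GRCm38), run 5′ to 3′ on the coding strand, and carry the codon in capitals.
Gpx1, codon 47 of 201: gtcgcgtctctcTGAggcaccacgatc
Gpx2, codon 40 of 190: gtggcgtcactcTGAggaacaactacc
Gpx3, codon 73 of 226: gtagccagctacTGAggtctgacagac
Gpx4, codon 129 of 253: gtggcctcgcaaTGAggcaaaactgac
Txnrd1, codon 612 of 613: cagtctggctgcTGAggt
Txnrd2, codon 526 of 527: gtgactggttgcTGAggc
These codons lie in coding exons at chr9:108339451-108339453 (Gpx1, plus strand), chr12:76795256-76795258 (Gpx2, minus strand), chr11:54907256-54907258 (Gpx3, plus strand), chr10:80054737-80054739 (Gpx4, plus strand), chr10:82896037-82896039 (Txnrd1, plus strand) and chr16:18477772-18477774 (Txnrd2, plus strand). The remaining 4 peroxidases had no TGA in frame. The in-frame window most like those of the selenocysteine enzymes held a cysteine codon, in capitals, in each of them.
Gpx5, codon 73 of 221: gtggctacctatTGCggtctgacaatc
Gpx6, codon 73 of 221: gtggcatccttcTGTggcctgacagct
Gpx7, codon 56 of 186: gtagctagcgaaTGTggcttcacagac
Gpx8, codon 79 of 209: gtggctagtgacTGCcgcttcacagac
The 4 selenocysteine peroxidases were divided, with Gpx1, Gpx3 and Gpx4 higher in luminal and Gpx2 higher in basal cells. The cysteine peroxidases allow no contrast with them, since Gpx5 and Gpx6 had no counts, Gpx7 passed the filter only through its basal counts and the reads of Gpx8 cannot be told from those of another gene.

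Of the 54 members, 44 passed the filter on low counts and were tested with edgeR's quasi-likelihood test among 14609 genes. At a Benjamini-Hochberg adjusted p under 0.05, 19 members were higher in luminal cells, which is 43.2% of those tested, whereas 33.6% of all genes tested were. Another 13 members were higher in basal cells, or 29.5%, against 31.2% of all genes tested. The remaining 12 were not called. At least a 2-fold difference was seen in 16 of the luminal and 8 of the basal calls. The values of the 2 groups did not overlap for 28 members (63.6%), and this was the case for 50.1% of all genes tested. The median log2 fold change, luminal minus basal, was 0.39 for the members and 0.05 for all genes tested. Gpx7, Gsto2 and Gstp3 passed the filter only through the group in which they were higher, so that these counts describe the genes tested and not all members. The basal share lay close to the background.

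**Figure D1:**
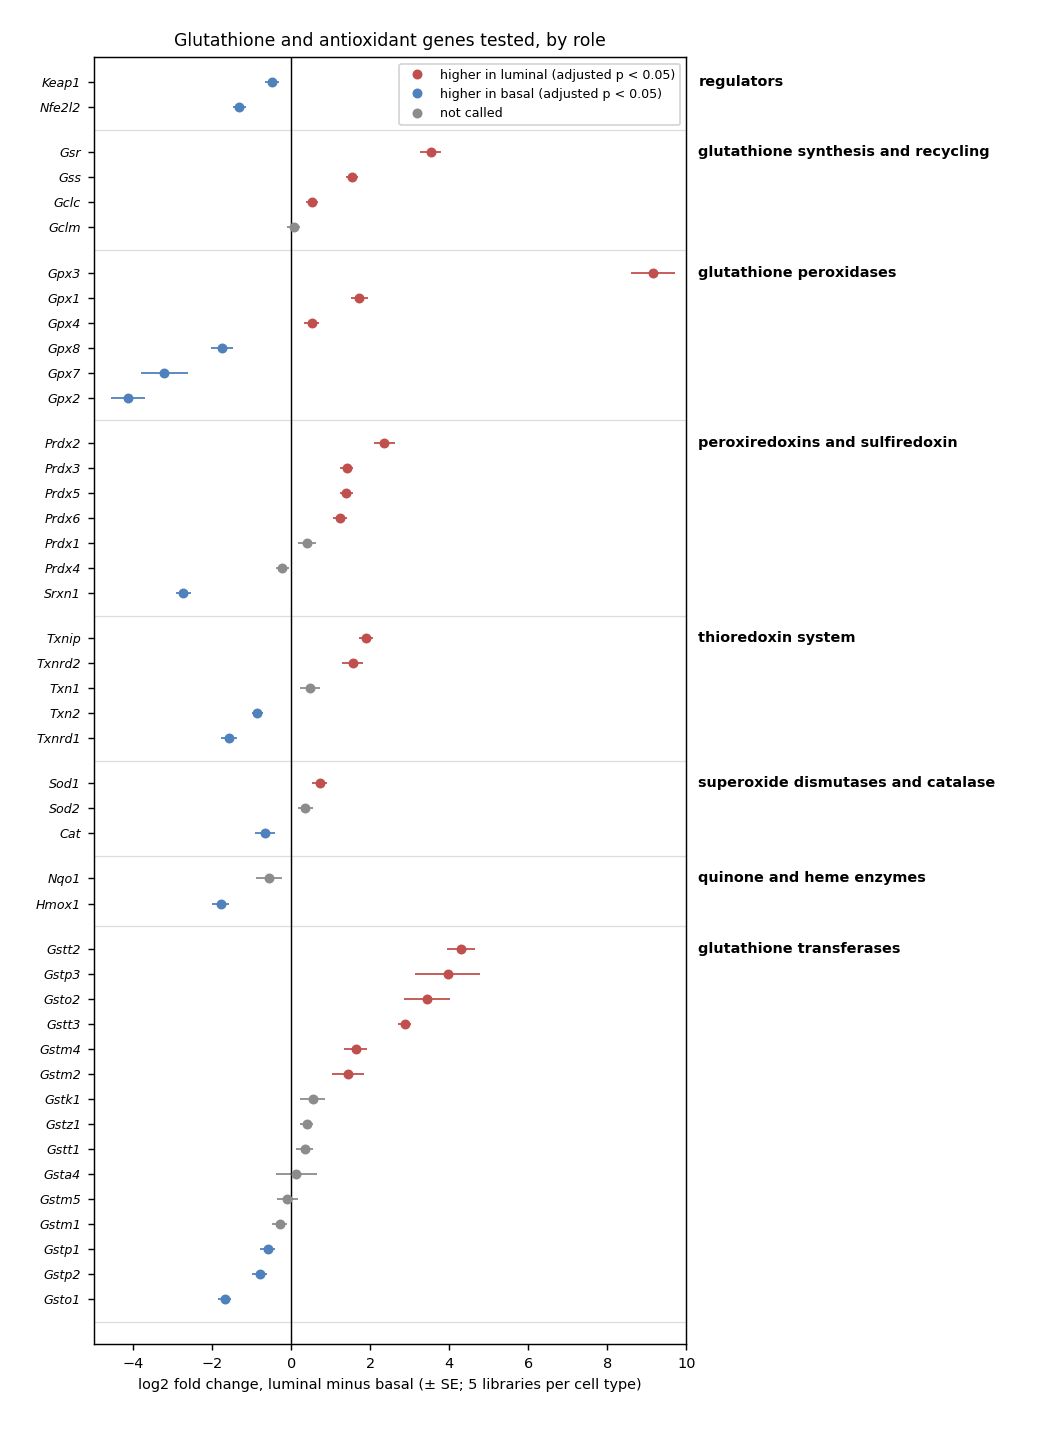
Log2 fold change (luminal minus basal, horizontal axis) with its SE for the 44 members tested, grouped by role, with 5 libraries per cell type. Red points are higher in luminal cells (19), blue points higher in basal cells (13) and grey points not called (12); Gpx3 lies farthest to the right at 9.15 and Gpx2 farthest to the left at -4.13.

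Both regulators were higher in basal cells. Nfe2l2, which encodes NRF2, was at 111, 81.6, 82.3, 127 and 123 CPM in luminal libraries 1 to 5 and at 311, 244, 224, 246 and 276 CPM in basal libraries 1 to 5. The groups did not overlap, and the log2 fold change was -1.31 ± 0.16 (SE, edgeR adjusted p = 7.40e-06). Keap1, the adaptor that marks NRF2 for degradation, was at 81.5, 55.0, 64.5, 39.9 and 57.9 CPM in luminal and at 63.4, 86.7, 96.3, 80.9 and 90.3 CPM in basal libraries. Here the groups overlapped through luminal library 1 and basal library 1, and basal was the higher in 4 of 5 same-numbered pairs. The log2 fold change was -0.48 ± 0.18 (SE, edgeR adjusted p = 0.0293), and it lost its call with library totals alone (log2 fold change -0.29, adjusted p = 0.212) or upper-quartile factors (adjusted p = 0.0817), and also without luminal library 2, 4 or 5 or basal library 2, 3 or 5 (adjusted p = 0.0513 to 0.0709). Of the Keap1 transcript, 14.11% of exon bases overlap the antisense gene Gm16754.

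The enzymes that make and recycle glutathione were higher in luminal cells in 3 of 4 cases, by very different amounts. Of all genes tested, 33.6% were called in that direction, and the count describes these 4 genes only. Gsr, which reduces oxidised glutathione with NADPH, was at 375, 205, 427, 249.4 and 222 CPM in luminal and at 16.3, 24.2, 32.2, 33.4 and 21.8 CPM in basal libraries. The lowest luminal library lay well above the highest basal library, and the difference was 11.6-fold (log2 fold change 3.53 ± 0.26 SE, edgeR adjusted p = 3.64e-08). Gss, which adds glycine in the last step of synthesis, was at 43.8, 42.2, 33.9, 44.7 and 47.9 CPM in luminal and at 12.5, 12.5, 16.9, 17.9 and 13.5 CPM in basal libraries. This was again without overlap, at 2.90-fold (log2 fold change 1.54 ± 0.16 SE, edgeR adjusted p = 1.14e-06).

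The rate-limiting ligase differed little. Gclc, its catalytic subunit, was at 190, 180, 211, 182 and 291 CPM in luminal and at 136, 163, 116, 154 and 163 CPM in basal libraries. The groups did not overlap, at a log2 fold change of 0.52 ± 0.16 (SE, edgeR adjusted p = 0.0110), with luminal library 5 apart from the rest. Gclm, its modifier subunit, was at 260, 348, 248, 333 and 373 CPM in luminal and at 244, 324, 300, 342 and 287 CPM in basal libraries. The ranges of Gclm overlapped almost entirely, and the log2 fold change of 0.06 ± 0.16 (SE, edgeR adjusted p = 0.748) was smaller than its error. The log2 fold changes of Gsr and Gss exceeded those of both ligase subunits by more than their SEs.

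Of the 6 glutathione peroxidases tested, 3 were called in each direction. The luminal and basal shares among all genes tested were 33.6% and 31.2%. Some of the peroxidase calls are uncertain, so the count describes the genes tested and shows no even split of the family. The call of Gpx4 was lost in several fits with a library left out. Gpx7 passed the filter only through its basal counts, and the reads of Gpx8 cannot be told from those of another gene. Gpx3, the peroxidase secreted into plasma and extracellular fluid, was at 6819, 1844, 2454, 2523 and 2591 CPM in luminal and at 4.49, 3.002, 6.19, 11.6 and 3.24 CPM in basal libraries. No basal library came near the luminal range, and the fold change was 569 (log2 fold change 9.15 ± 0.56 SE, edgeR adjusted p = 5.37e-09). Luminal library 1 stood above the other luminal libraries, and without it the log2 fold change remained within 8.71 to 9.58, the range over all left-out libraries. That library also had the highest sum of the 7 fibroblast markers, 117 CPM, while the remaining 4 had 28.0 to 62.8 CPM. This rested on Dcn (95.1 CPM against 11.6 to 39.5 CPM), whereas Pdgfra, at 6.25 CPM in luminal library 1 and 9.52 CPM in luminal library 5, was called higher in basal cells (log2 fold change -1.09). The part of such cells in the Gpx3 value of luminal library 1 was not tested. Per kilobase of transcript, the mean level of Gpx3 was 2036 CPM in luminal and 3.57 CPM in basal cells.

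Gpx1, the general cytosolic peroxidase, was at 271, 406, 289, 449 and 338 CPM in luminal and at 67.0, 105, 124, 142 and 93.8 CPM in basal libraries. The groups did not overlap, and the log2 fold change was 1.72 ± 0.21 (SE, edgeR adjusted p = 5.63e-06). Gpx4, which reduces lipid peroxides within membranes and protects cells from ferroptosis, reached 188 ± 56.4 CPM in luminal and 132 ± 12.0 CPM in basal cells (mean ± SD, n = 5 each). Its groups overlapped, and its log2 fold change of 0.51 ± 0.18 (SE, edgeR adjusted p = 0.0242) lost the call without luminal library 2 or 4 or basal library 1, 2 or 5 (log2 fold change 0.35 to 0.50, adjusted p = 0.0506 to 0.0657). In addition, 61.5% of the 51-base words of its transcript occur in the pseudogene Gpx4-ps2, which makes its level uncertain.

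Gpx2, best known from the epithelium of the gut, took the opposite direction. It was at 2.44, 1.53, 2.21, 0.993 and 3.74 CPM in luminal and at 14.8, 34.0, 68.6, 51.7 and 23.98 CPM in basal libraries. Although the basal libraries varied widely, none approached the luminal ones, and the difference was 17.6-fold (log2 fold change -4.13 ± 0.43 SE, edgeR adjusted p = 1.29e-06). Gpx8, a peroxidase of the endoplasmic reticulum, was at 1.88, 3.63, 2.39, 3.67 and 4.57 CPM in luminal and at 8.36, 13.6, 11.8, 12.1 and 8.09 CPM in basal libraries. The groups did not overlap (log2 fold change -1.74 ± 0.28 SE, edgeR adjusted p = 7.74e-05). Gpx8 lies inside the gene Cdc20b on the opposite strand with no shared exon, yet both were listed with almost the same counts (1073 and 1079 over all libraries), so that the reads cannot be assigned to either gene. Gpx7, also of the endoplasmic reticulum, passed the filter only through its basal counts and was at 0.584 ± 0.562 CPM in luminal and 5.33 ± 1.33 CPM in basal cells (mean ± SD, n = 5 each; log2 fold change -3.22 ± 0.59 SE, edgeR adjusted p = 2.72e-04). Gpx5 and Gpx6, which are neighbours on chromosome 13 and are known from the epididymis and the olfactory epithelium, were at 0 counts in all 10 libraries.

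**Figure D2:**
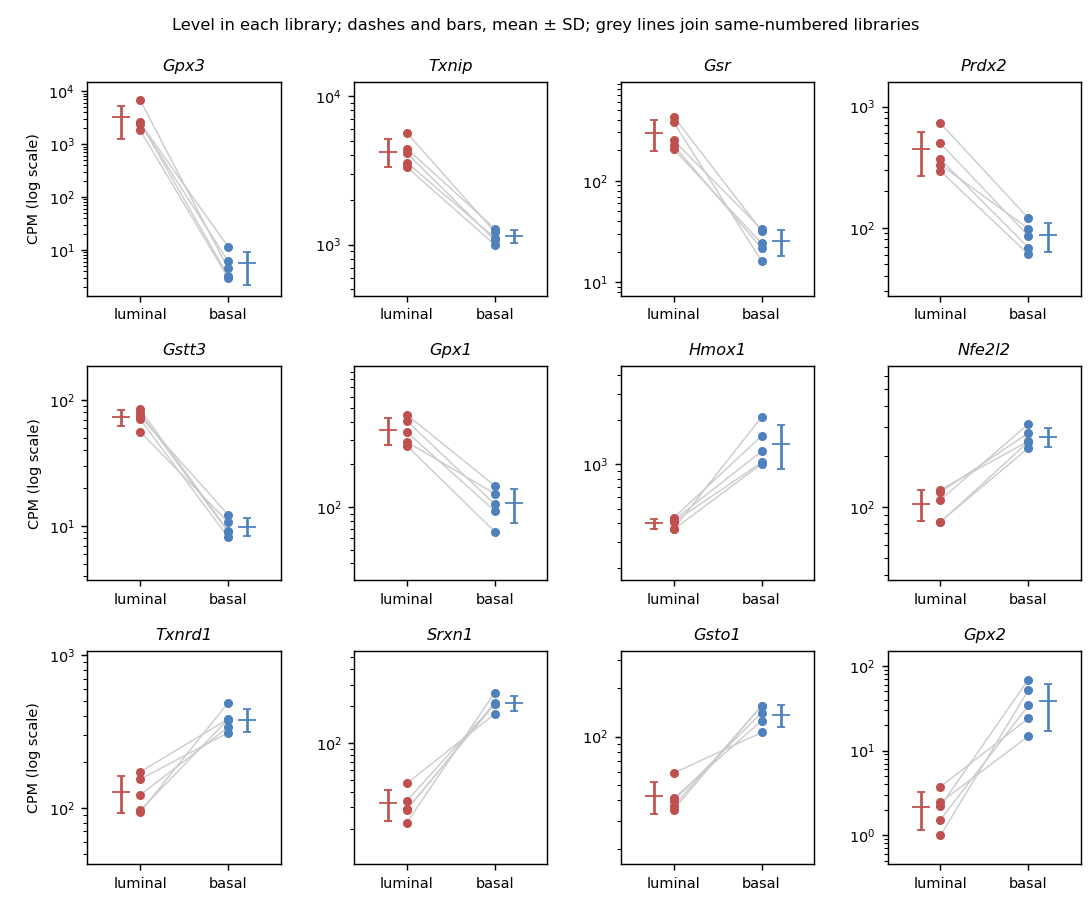
CPM (vertical axis, log scale) in each luminal (red) and basal (blue) library for 12 members; dashes with bars are the mean ± SD of 5 libraries, and grey lines join libraries with the same number. No line crosses into the other group: Gpx3, Txnip, Gsr, Prdx2, Gstt3 and Gpx1 are higher in all 5 luminal libraries, and Hmox1, Nfe2l2, Txnrd1, Srxn1, Gsto1 and Gpx2 in all 5 basal libraries. The 12 members shown are all called ones whose groups do not overlap, so this separation follows from the choice of genes.

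Among the peroxiredoxins, 4 of 6 were higher in luminal cells and none was called higher in basal cells, beside 33.6% and 31.2% of all genes tested. With so few genes the count describes these genes only. The enzyme that repairs the peroxiredoxins was higher in basal cells. Prdx2, the cytosolic peroxiredoxin that is also abundant in red blood cells, was at 294, 497, 332, 727 and 366 CPM in luminal and at 60.4, 85.6, 98.4, 120 and 68.7 CPM in basal libraries. All luminal libraries lay above all basal ones, at 5.12-fold (log2 fold change 2.35 ± 0.26 SE, edgeR adjusted p = 2.57e-06). The 3 erythroid markers found summed to 4.74 to 18.3 CPM in luminal and 0.546 to 2.28 CPM in basal libraries, most of it Hba-a1 in luminal libraries (3.37 to 15.9 CPM). Red cell lysis and the TER-119 stain of the protocol are steps against such cells, and the part of their RNA in the Prdx2 difference was not tested. Prdx3 and Prdx5, which act in mitochondria, and Prdx6, which also repairs oxidised membrane lipids, were 2.36- to 2.65-fold higher in luminal cells without overlap. Prdx5 was at 231 ± 37.0 CPM in luminal and 87.9 ± 16.7 CPM in basal cells (mean ± SD, n = 5 each), and 32.41% of its exon bases overlap the antisense gene Trmt112.

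Prdx1, the second cytosolic form, and Prdx4, the form of the endoplasmic reticulum, were not called. Prdx1 was at 240, 280, 228, 360 and 330 CPM in luminal and at 143, 185, 235, 362 and 167 CPM in basal libraries. Basal library 4 reached the highest luminal value, and the log2 fold change of 0.40 ± 0.23 (SE, edgeR adjusted p = 0.150) passed the threshold when the replicate number was entered as a block (adjusted p = 0.0461) or when basal library 4 was left out (log2 fold change 0.65, adjusted p = 0.00831). Srxn1, sulfiredoxin, which restores over-oxidised peroxiredoxins, was at 28.5, 33.8, 28.8, 22.4 and 46.9 CPM in luminal and at 213, 209, 208, 258 and 173 CPM in basal libraries. Its groups were far apart, with a 6.61-fold higher level in basal cells (log2 fold change -2.73 ± 0.19 SE, edgeR adjusted p = 2.39e-08).

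In the thioredoxin system the cytosolic and the mitochondrial reductase were called in opposite directions. Txnrd1, the cytosolic reductase, was at 154, 93.5, 121, 95.9 and 171 CPM in luminal and at 309, 484, 335, 377 and 380 CPM in basal libraries. It was 2.97-fold higher in basal cells without overlap (log2 fold change -1.57 ± 0.20 SE, edgeR adjusted p = 7.33e-06). Txnrd2, the mitochondrial reductase, had the opposite direction, at 14.8 ± 5.48 CPM in luminal and 5.02 ± 1.14 CPM in basal cells (mean ± SD, n = 5 each; log2 fold change 1.56 ± 0.27 SE, edgeR adjusted p = 1.44e-04). Of their substrates, the cytosolic Txn1 was not called (197 ± 68.8 CPM in luminal and 142 ± 59.5 CPM in basal cells, mean ± SD, n = 5 each; log2 fold change 0.47 ± 0.26 SE, edgeR adjusted p = 0.126). Its basal library 4 held 247 CPM against 109 to 131 CPM in the other basal libraries, and the call was made with the replicate block (adjusted p = 0.00813). The mitochondrial Txn2 was higher in basal cells (66.8 ± 9.95 CPM and 121 ± 14.4 CPM, mean ± SD, n = 5 each; edgeR adjusted p = 8.98e-05).

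Txnip, the thioredoxin-binding arrestin that rises with glucose and limits its uptake, was at 5634, 3315, 4114, 3559 and 4415 CPM in luminal and at 1215, 996, 1071, 1109 and 1281 CPM in basal libraries. It was 3.71-fold higher in luminal cells without overlap (log2 fold change 1.89 ± 0.19 SE, edgeR adjusted p = 6.53e-07), and its mean level per length was 1488 CPM per kilobase in luminal and 401.2 CPM per kilobase in basal cells. The antisense gene Gm15441, which spans Txnip, was listed with counts that differed from those of Txnip by at most 0.161% in any library. Reads of the 2 genes could therefore not be told apart.

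Neither catalase nor any superoxide dismutase separated the groups completely. Sod1, the cytosolic copper and zinc dismutase, was at 114, 150, 90.4, 180 and 138 CPM in luminal and at 74.7, 67.8, 84.7, 105 and 76.2 CPM in basal libraries. Only luminal library 3 fell below a basal library, luminal was the higher in 5 of 5 pairs, and the log2 fold change was 0.72 ± 0.18 (SE, edgeR adjusted p = 0.00331). Sod2, the mitochondrial manganese dismutase, was at 81.5, 51.6, 54.8, 96.3 and 81.3 CPM in luminal and at 45.4, 58.7, 50.1, 72.0 and 58.2 CPM in basal libraries. The groups of Sod2 overlapped and it was not called (log2 fold change 0.36 ± 0.19 SE, edgeR adjusted p = 0.108), but it was with upper-quartile factors (adjusted p = 0.0381), library totals (0.0175) or without luminal library 2 (0.0318).

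Cat, the peroxisomal catalase, was at 40.3, 31.6, 22.9, 15.8 and 46.3 CPM in luminal and at 33.6, 51.7, 59.6, 58.6 and 44.0 CPM in basal libraries. It was called higher in basal cells (log2 fold change -0.66 ± 0.26 SE, edgeR adjusted p = 0.0375), but the groups overlapped, only 3 of 5 pairs had the basal library higher, and the call was lost with the replicate block (adjusted p = 0.0593), upper-quartile scaling (0.0751) or library totals (0.129), and without luminal library 2, 3 or 4 or basal library 2, 3 or 4 (0.0604 to 0.0832). Sod3, the extracellular dismutase, was close to the detection limit with 13, 0, 8, 15 and 14 counts in luminal and 9, 3, 5, 4 and 3 counts in basal libraries, and it was not tested.

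The enzymes for heme and quinones gave one clear and one unclear result. Hmox1, heme oxygenase, a strongly inducible target of NRF2, was at 408, 437, 365, 368 and 421 CPM in luminal and at 1031, 1553, 1007, 2086 and 1224 CPM in basal libraries. The luminal libraries were tightly grouped and all lay below the basal ones, which were 3.45-fold higher (log2 fold change -1.79 ± 0.21 SE, edgeR adjusted p = 3.56e-06). Hmox1 is also expressed by macrophages. Of the 7 immune markers, 4 were tested and 2 were called in each direction. Cd68 and Cd74 were higher in basal libraries, with 8.28 ± 2.09 CPM against 29.7 ± 7.01 CPM for Cd68 and 2.62 ± 1.19 CPM against 20.7 ± 7.90 CPM for Cd74 (luminal against basal, mean ± SD, n = 5 each). Cd52 and the macrophage gene Lyz2 were higher in luminal libraries (log2 fold change 2.03 and 1.69, edgeR adjusted p = 0.00664 and 0.0139). Ptprc, which encodes the CD45 that the protocol stains for, reached at most 0.381 CPM in luminal and 0.0682 CPM in basal libraries. The part of immune cells in the Hmox1 difference was not tested. Nqo1, the quinone reductase often read as a sign of NRF2 activity, was at 35.2, 18.5, 23.4, 14.3 and 49.9 CPM in luminal and at 23.8, 53.8, 56.2, 45.1 and 30.2 CPM in basal libraries. The groups overlapped, 3 of 5 pairs had the basal library higher, and the log2 fold change of -0.56 ± 0.32 (SE) was not called (edgeR adjusted p = 0.140). Without luminal library 5 it was called (log2 fold change -0.87, adjusted p = 0.0215).

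The glutathione transferases, which couple glutathione to electrophilic compounds, were the largest family, with 22 members. Of the 15 tested, 6 were called in the luminal and 3 in the basal direction, and 6 were not called, where 33.6% and 31.2% of all genes tested were called in these directions. Direction differed between classes and within them. In the theta class, 2 of 3 genes tested were higher in luminal cells. Gstt2 was at 21.7, 47.7, 29.4, 50.1 and 36.7 CPM in luminal and at 3.49, 0.955, 1.47, 2.25 and 1.199 CPM in basal libraries. The basal libraries all lay far below, and the difference was 19.6-fold (log2 fold change 4.29 ± 0.35 SE, edgeR adjusted p = 9.88e-08). Gstt3 was at 70.6, 79.4, 56.3, 74.5 and 84.4 CPM in luminal and at 8.23, 9.07, 10.8, 12.4 and 9.23 CPM in basal libraries. The groups were far apart, at 7.34-fold (log2 fold change 2.88 ± 0.17 SE, edgeR adjusted p = 3.11e-09). Gstt1, which lies between them on chromosome 10, 2390 bases from Gstt3, was at 14.7 ± 3.90 CPM in luminal and 11.6 ± 2.52 CPM in basal cells and was not called (mean ± SD, n = 5 each; edgeR adjusted p = 0.197). Part of the Gstt3 transcript (26.0% of its 51-base words) is shared with the overlapping model Gm20441.

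The omega enzymes are Gsto1 and Gsto2. Gsto1 was at 36.8, 59.3, 39.8, 35.1 and 41.2 CPM in luminal and at 155, 106, 141, 156 and 125 CPM in basal libraries. The groups did not overlap, and Gsto1 was 3.22-fold higher in basal cells (log2 fold change -1.69 ± 0.17 SE, edgeR adjusted p = 8.33e-07). Gsto2 begins 647 bases beyond the end of Gsto1 on chromosome 19. It passed the filter only through its luminal counts and was at a low level (3.62 ± 1.72 CPM and 0.329 ± 0.295 CPM, mean ± SD, n = 5 each; log2 fold change 3.43 ± 0.58 SE, edgeR adjusted p = 1.35e-04). The pi class lies in a cluster on the same chromosome. Gstp1, the major pi enzyme, and Gstp2 were 1.51- and 1.74-fold higher in basal cells (edgeR adjusted p = 0.00985 and 0.00262; with library totals Gstp1 lost its call at 0.0529). Gstp3, which also passed the filter only through its luminal counts, was at 1.38 ± 0.877 CPM in luminal and 0.0874 ± 0.12 CPM in basal cells (mean ± SD, n = 5 each). Summed over libraries, Gstp3 had 106 counts in luminal and 6 in basal cells, a ratio of 16.8 with a 95% interval of 7.47 to 46.8 that covers counting error only. Gstp1 and Gstp2 share 62.1% of the 51-base words of Gstp1, so that the split of reads between them is uncertain. With both summed, the number of members higher in basal cells was 12, because the pair was then counted once. That number says nothing of how the reads divide between them.

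The mu class on chromosome 3 was low or even between the layers. Gstm4 and Gstm2 were higher in luminal cells, at 6.56 ± 1.08 CPM against 2.12 ± 0.748 CPM (edgeR adjusted p = 2.46e-04) and at 3.03 ± 1.74 CPM against 1.11 ± 0.240 CPM (edgeR adjusted p = 0.00687), each as mean ± SD with n = 5. Gstm1, the most abundant of the class per length, was at 34.2 ± 5.67 CPM in luminal and 41.9 ± 10.4 CPM in basal cells (mean ± SD, n = 5 each) and was not called, nor was Gstm5. Without basal library 1, Gstm1 was called higher in basal cells (log2 fold change -0.44, adjusted p = 0.0322). Gstm3, Gstm6 and Gstm7 had too few counts to be tested. Gstm6 had 43 counts in luminal and 4 in basal cells (ratio 10.2, 95% interval 3.72 to 39.2, counting error only). The kappa and zeta enzymes Gstk1 and Gstz1 were not called, Gstz1 by a narrow margin (log2 fold change 0.39 ± 0.17 SE, edgeR adjusted p = 0.0512; 0.0477 with the replicate block).

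The alpha class, which dominates in liver, was nearly silent here except for Gsta4, the enzyme that detoxifies hydroxynonenal, a product of lipid peroxidation. Gsta4 varied widely, at 13.1, 35.5, 11.2, 46.6 and 28.4 CPM in luminal and at 6.80, 15.7, 24.99, 62.8 and 12.4 CPM in basal libraries. Luminal was the higher in 3 of 5 pairs (log2 fold change 0.13 ± 0.52 SE, edgeR adjusted p = 0.836). Gsta3 was not tested but was at 0.611 to 4.51 CPM in luminal and 0.0774 to 0.438 CPM in basal libraries. Gsta1 had 76 counts in basal and 2 in luminal cells, and its value of 3.63 CPM in basal library 4 lay far above the 0 to 0.774 CPM of the other basal libraries. Gsta1 shares 89.6% of its 51-base words with other genes.

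Family totals and the share of each gene in them were compared between the layers. Levels in this comparison are CPM per kilobase of the longest coding transcript, and the counts behind them may include intron reads. The glutathione peroxidases summed to 2558 ± 1192 in luminal and 285.7 ± 58.1 in basal cells (CPM per kilobase, mean ± SD, n = 5 each). Gpx3 made up 65.6% to 91.8% of this pool in luminal libraries (mean 76.4%) and 0.686% to 2.03% in basal libraries. Without Gpx3 the pools were 521.6 ± 127 and 282.1 ± 56.4 (CPM per kilobase, mean ± SD, n = 5 each), a ratio of 1.85 in place of 8.95. In basal cells the largest parts were Gpx4 with 47.4% ± 7.34 and Gpx1 with 34.3% ± 3.13, and Gpx2 came to 12.0% ± 4.94 against 0.0883% ± 0.0502 in luminal cells (SD, n = 5 each).

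The peroxiredoxin pool was 2.46 times as large in luminal as in basal cells, with 837.6 ± 178 against 340.3 ± 86.8 (CPM per kilobase, mean ± SD, n = 5 each). Prdx2 held the largest share in luminal cells, 32.1% ± 6.46, whereas Prdx1 held the largest in basal cells, 27.3% ± 3.59 (SD, n = 5 each). The transferase pool overlapped between the groups, at 250.3 to 364.9 in luminal and 324.1 to 534.8 in basal libraries (CPM per kilobase). Within it, Gsto1 made up 11.6% ± 2.10 in luminal and 30.6% ± 6.34 in basal cells, and Gstt3 made up 12.5% ± 1.19 in luminal and 1.38% ± 0.0979 in basal cells (SD, n = 5 each). The superoxide dismutase pool was almost entirely Sod1 in both, at 94.2% ± 1.38 and 92.8% ± 1.05 (SD, n = 5 each).

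**Figure D3:**
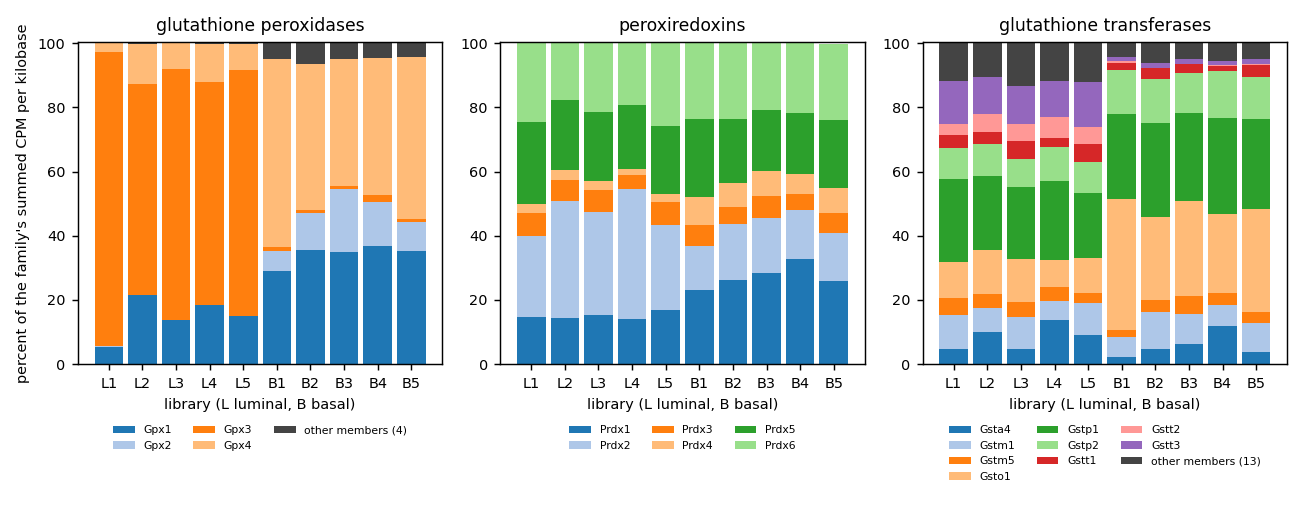
Share of each gene (vertical axis, percent of the family's summed CPM per kilobase) in the 5 luminal (L1 to L5) and 5 basal (B1 to B5) libraries for glutathione peroxidases, peroxiredoxins and glutathione transferases. Gpx3 fills 65.6% to 91.8% of the peroxidase bars in luminal libraries and at most 2.03% in basal libraries, and the Gsto1 segment is wider in every basal library (24.7% to 40.6%) than in any luminal one (8.60% to 13.7%).

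**Figure D4:**
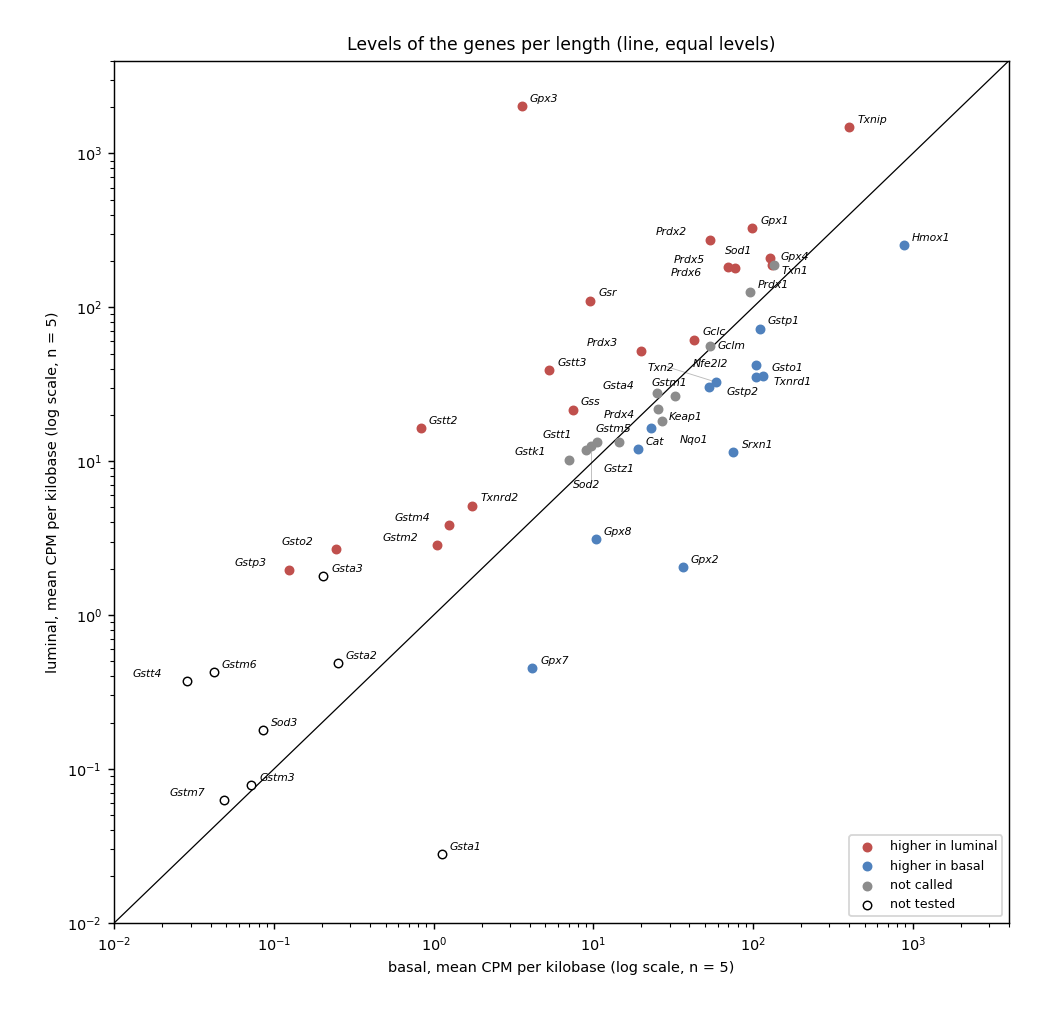
Mean level in luminal (vertical axis) against basal cells (horizontal axis), in CPM per kilobase on log scales, for the members with counts in both groups; the line marks equal levels, filled colours give the call and open circles members that were not tested. Gpx3 and Txnip lie at the top (2036 and 1488 in luminal cells), Hmox1 lies farthest to the right (879.7 in basal cells), and Gpx2 and Srxn1 lie below the line.

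Many NRF2 targets carry an antioxidant response element near the start of transcription. The 250 bases upstream of each annotated start (RefSeq, GRCm38.p6) were searched on both strands for the letters TGACNNNGC, the core of that element, and TGANTCAGC, a form it shares with sites of small MAF and AP-1 factors. The letters overlap: a TGANTCAGC whose N is C matches both. Windows were given for 47 members, and 11 of them held a match: 5 of 12 members higher in basal cells, 1 of 15 higher in luminal cells, 3 of 11 not called and 2 of 9 not tested. No window was given for Hmox1, Gclc, Gsr, Prdx6, Gstt2, Gsta4 and Sod3. These members were not searched, and nothing is known here of a match in them. Among the tested genes with a window, 14.5% held a match, namely 14.4% of those higher in luminal and 15.4% of those higher in basal cells. TGANTCAGC was found in Gstp1, Gstp2, Prdx1 and Srxn1, and in 1.02% of all windows. A match describes the letters only, and these data hold no measure of binding.

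The upstream sequence of Srxn1, at chr2:152105274-152105523 on the plus strand, is shown whole because Srxn1 had the largest basal difference among the members with a match, with the match in capitals 45 bases before the start.
Srxn1: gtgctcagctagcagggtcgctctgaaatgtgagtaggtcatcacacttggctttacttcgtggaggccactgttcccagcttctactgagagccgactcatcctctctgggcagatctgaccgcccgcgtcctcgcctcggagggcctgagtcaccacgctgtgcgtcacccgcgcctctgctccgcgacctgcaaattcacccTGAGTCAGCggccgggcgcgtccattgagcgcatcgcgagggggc
For the other members with TGANTCAGC, for the remaining basal members with a match and for Gclm, the match is given in capitals with its 10 flanking bases on each side, read on the strand of the gene.
Gstp1: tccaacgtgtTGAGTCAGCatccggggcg
Gstp2: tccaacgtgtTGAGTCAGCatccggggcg
Prdx1: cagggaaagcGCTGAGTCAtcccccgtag
Txnrd1: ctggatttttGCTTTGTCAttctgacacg
Nfe2l2: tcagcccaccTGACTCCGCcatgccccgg
Gclm: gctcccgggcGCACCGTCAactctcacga
The windows lie at chr19:4037913-4038162 (Gstp1, minus strand), chr19:4042222-4042471 (Gstp2, minus strand), chr4:116685349-116685598 (Prdx1, plus strand), chr10:82858956-82859205 (Txnrd1, plus strand, 1 of 3 starts), chr2:75704664-75704913 (Nfe2l2, minus strand) and chr3:122245307-122245556 (Gclm, plus strand). The matches of Gstp1 and Gstp2 are identical including their flanks and lie 74 and 89 bases before the start. In Prdx1, Txnrd1 and Gclm the match is on the opposite strand. Srxn1, Txnrd1 and Nfe2l2 were at least 2-fold higher in basal cells and Gstp1 and Gstp2 less than 2-fold, while Prdx1 and Gclm were not called. The match of Sod1, which was called higher in luminal cells, lies 56 bases before the start on the opposite strand. The remaining matches were in Gstm5, which was not called, and in Gsta3 and Gstm7, which were not tested.

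The members varied within a cell type in a partly shared way. The median coefficient of variation of the tested members was 25.4% in luminal and 22.3% in basal cells. Basal library 4 had the highest basal value for 23 of 44 tested members (52.3%), whereas it had the highest value for 30.3% of all genes tested. Basal library 1 had the lowest basal value for 26 members (59.1%, against 27.4% of all genes). Among luminal libraries, library 5 was the highest for 16 members (36.4%, against 17.3%) and library 3 the lowest for 16 (36.4%, against 13.7%). Of the 32 called members, 30 had the same direction in 5 of 5 same-numbered pairs, the exceptions being Keap1 and Cat. The calls rest on the same libraries, and groups that do not overlap give 5 of 5 in any pairing. This count is therefore a description and no further support for the calls.

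Other genes of redox metabolism were counted in lists outside the members. In the list of glutathione cycling and thiol exchange, 8 of 20 tested genes were called in the luminal and 5 in the basal direction, beside 33.6% and 31.2% of all genes tested. These shares are also the background for the counts of every list that follows. The lists are short, and their counts describe the listed genes only. Hagh, which releases glutathione in the glyoxalase pathway, was higher in luminal cells (log2 fold change 2.09 ± 0.15 SE, edgeR adjusted p = 2.23e-08), as was the microsomal transferase Mgst3 (1.95 ± 0.30 SE, edgeR adjusted p = 6.07e-05). Chac1, which degrades glutathione, was at 4.82 ± 1.61 CPM in luminal and 69.2 ± 13.5 CPM in basal cells (mean ± SD, n = 5 each; log2 fold change -3.85 ± 0.26 SE, edgeR adjusted p = 1.22e-08). The persulfide dioxygenase Ethe1 was higher in basal cells as well (-1.57 ± 0.23 SE, edgeR adjusted p = 3.46e-05).

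Cysteine, the limiting building block of glutathione, is imported or made from methionine. Of 9 tested genes of this supply, 2 were called in the luminal and 4 in the basal direction. Cth, which makes cysteine from cystathionine, was almost confined to basal libraries, at 0.202 ± 0.138 CPM in luminal and 32.7 ± 3.21 CPM in basal cells (mean ± SD, n = 5 each, log2 fold change -7.23 ± 0.31 SE, edgeR adjusted p = 2.44e-10). Its luminal libraries held 0.063 to 0.37 CPM, near the level of 3 counts, so the size of this fold change is uncertain. Slc3a2, the heavy chain of the cystine and other amino acid transporters, was at 438 ± 71.9 CPM and 2839 ± 263 CPM (mean ± SD, n = 5 each; -2.70 ± 0.17 SE, edgeR adjusted p = 7.92e-09). Cbs, which makes the cystathionine that Cth uses, was higher in luminal cells (7.49 ± 2.73 CPM and 2.13 ± 0.934 CPM, mean ± SD, n = 5 each; 1.81 ± 0.35 SE, edgeR adjusted p = 3.89e-04). Slc1a1, a transporter of glutamate and cysteine, was also higher in luminal cells, by a smaller amount (0.67 ± 0.13 SE, edgeR adjusted p = 5.31e-04).

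NADPH feeds both Gsr and the thioredoxin reductases. Of 19 genes for its supply, 8 were called on the luminal and 5 on the basal side. Pgls and H6pd of the pentose phosphate route were higher in luminal cells (log2 fold change 1.88 ± 0.23 SE and 1.73 ± 0.25 SE, edgeR adjusted p = 6.84e-06 and 3.63e-05). Aldh1l2 and Mthfd2, the mitochondrial folate enzymes, were higher in basal cells, with Aldh1l2 at 3.24 ± 0.671 CPM in luminal and 250.5 ± 36.1 CPM in basal cells (mean ± SD, n = 5 each; log2 fold change -6.26 ± 0.20 SE, edgeR adjusted p = 3.03e-11) and Mthfd2 at a log2 fold change of -3.93 ± 0.17 (SE, edgeR adjusted p = 3.24e-10).

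Of 14 partners and regulators of NRF2 tested, 4 were called on the luminal and 9 on the basal side. Nfe2l3, a relative of NRF2, was higher in luminal cells (log2 fold change 1.91 ± 0.25 SE, edgeR adjusted p = 1.21e-05), and Maff, a small MAF partner, was higher in basal cells (-1.90 ± 0.17 SE, edgeR adjusted p = 2.38e-07). The kinase gene Gsk3b, whose product marks NRF2 for degradation, was also higher in basal cells (-1.47 ± 0.16 SE, edgeR adjusted p = 2.07e-06), and the ubiquitin ligase adaptor Fbxw11 in luminal cells (0.95 ± 0.13 SE, edgeR adjusted p = 1.62e-05). Among 18 further targets of NRF2 tested, 5 were called on the luminal and 8 on the basal side. The exporters of the list went in opposite directions, with Abcc3 at 152 ± 27.1 CPM in luminal and 3.28 ± 1.49 CPM in basal cells and Abcc4 at 0.873 ± 0.523 CPM and 26.5 ± 4.39 CPM (mean ± SD, n = 5 each; log2 fold changes 5.54 ± 0.32 SE and -4.90 ± 0.34 SE). Cbr1, a carbonyl reductase, was higher in luminal cells (1.91 ± 0.19 SE, edgeR adjusted p = 7.87e-07) and Cyp1b1, a cytochrome P450, in basal cells (-4.01 ± 0.23 SE, edgeR adjusted p = 2.87e-09). NRF2 targets as a group were therefore not all on one side, neither among the members nor outside them.

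**Figure D5:**
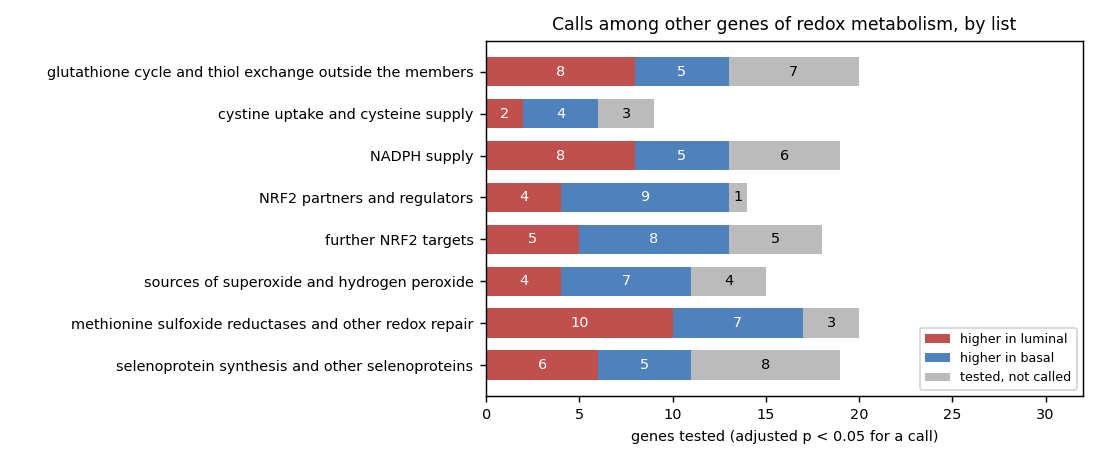
Number of genes tested (horizontal axis) in 8 lists of redox metabolism outside the members, divided into genes higher in luminal cells (red), higher in basal cells (blue) and tested but not called (grey) at an adjusted p under 0.05. Basal calls outnumber luminal calls for NRF2 partners (9 and 4), further NRF2 targets (8 and 5) and cystine supply (4 and 2), and luminal calls outnumber basal ones for redox repair (10 and 7) and NADPH supply (8 and 5).

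Sources of superoxide and hydrogen peroxide were called higher in basal cells for 7 and in luminal cells for 4 of 15 genes tested. Ero1a, which forms disulfide bonds in the endoplasmic reticulum and releases hydrogen peroxide, was the most counted of those named, at 660.7 ± 284 CPM in luminal and 7041 ± 419 CPM in basal cells (mean ± SD, n = 5 each; log2 fold change -3.41 ± 0.29 SE, edgeR adjusted p = 1.57e-07). Nox4, an oxidase that produces hydrogen peroxide, was also higher in basal cells (-2.02 ± 0.18 SE, edgeR adjusted p = 2.01e-07), whereas Noxo1, an oxidase organiser, and Sqor, the mitochondrial sulfide oxidoreductase, were higher in luminal cells (2.06 ± 0.27 SE and 3.56 ± 0.27 SE).

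Repair enzymes and selenoprotein genes were mixed. Of 20 methionine sulfoxide reductases and other repair genes, 10 were called on the luminal and 7 on the basal side. The reductases themselves were split, with the mitochondrial Msrb2 higher in luminal cells (log2 fold change 2.26 ± 0.28 SE, edgeR adjusted p = 6.96e-06) and Msrb3, at 7.29 ± 2.72 CPM in luminal and 205 ± 38.1 CPM in basal cells, higher in basal cells (mean ± SD, n = 5 each; -4.82 ± 0.27 SE, edgeR adjusted p = 2.60e-09). Pon3 was higher in luminal cells (2.74 ± 0.26 SE) and the sestrin Sesn2 in basal cells (-3.16 ± 0.22 SE). Of 19 tested genes for selenoprotein synthesis and other selenoproteins, 6 were called on the luminal and 5 on the basal side. Scly, which recovers selenium from selenocysteine, and Selenoh were higher in luminal cells (2.35 ± 0.21 SE and 1.69 ± 0.28 SE), and Selenom and Selenos, both of the endoplasmic reticulum, in basal cells (-3.59 ± 0.23 SE and -1.36 ± 0.16 SE).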

How the data were processed

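The authors deposited raw counts per gene, as whole numbers with no normalization, 1 column per library, keyed by Entrez identifier. The submitters' processing notes name cutadapt 4.2 and Bowtie2 2.3.5.1, and the study's methods poly(A)-selected single-end libraries aligned to mm10. The counting tool, its annotation and its use of strand are not given in the sources used here. Of 446 genes that lie inside another gene and have at least 1000 counts, the outer gene had as many or more counts in 79.6%, so reads can be listed under more than 1 gene and levels per kilobase of exon may include intron reads. Symbols (24570 matched, 24 not) and promoters come from RefSeq GRCm38.p6, transcripts from GENCODE M21, both of the assembly behind mm10.

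Grouping followed the cell type label, and luminal was compared with basal by edgeR 4.0.16 (R 4.3.3) with filterByExpr (minimum count 10, total 15), TMM factors, the quasi-likelihood test with no covariate and Benjamini-Hochberg adjustment over 14609 genes. The SE was obtained from the log2 fold change and the F statistic of the test. On simulated data edgeR recovered 84.5% of 200 changed genes, with 11 false calls. Only those 200 of 14609 genes were changed, far fewer than were called between luminal and basal cells. The simulation therefore does not show how the scaling or the test behaves under so broad a difference. Members and lists were chosen with earlier results of these data known. Values in every library are given for the 6 members with the largest called difference in each direction (10 CPM or more in the higher group on average, same direction in 5 of 5 pairs), the 4 highest per kilobase and the 14 central enzymes and regulators. Prdx1, Gsta4 and the other members described, Cbs, Cd52, Lyz2 and Ptprc were added after their values were seen. From each related list up to 2 called genes per direction are named. The description of each library opens with a number that same-numbered libraries have in common, taken here as the animal, and the pairing comes from it. Their deviations correlated at r = -0.105 to 0.169 (mean 0.0369, against -0.00626 for differently numbered libraries). If that number is not the animal, the p-values measure the spread between samples only, which may be technical. Alternatives were DESeq2 1.42.0, limma 3.58.1 voom, other scaling factors and filters, the replicate block and leaving out each library.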

Additional observations from a re-analysis of the deposited data

Results flagged for a closer look

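In 10 of 98 sets of 5 libraries, 1 library lay far from the other 4 by Dixon's criterion. Chance gives about 4.9 for independent sets of normally distributed values. Here the CPM was not log-transformed and the sets come from the same libraries, so no excess over chance is read from this. Basal library 4 accounted for 6 of the 10 sets. It held 152.6 CPM of Gpx4 against 124.3 to 130.3 CPM in the other basal libraries, 61.96 CPM of Gstp2 against 35.18 to 39.07 CPM, 116.7 CPM of Prdx5 against 75.52 to 86.66 CPM and 249.7 CPM of Prdx6 against 153.3 to 177.9 CPM. In the same library Txn1 reached 246.8 CPM against 109.1 to 131.3 CPM, and Gsta1 reached 3.626 CPM against 0 to 0.7738 CPM.

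In luminal cells, Gpx3 was at 6819 CPM in library 1 against 1844 to 2591 CPM in the others. Gclc was at 290.6 CPM in library 5 against 180.3 to 211.4 CPM, and Gsto1 was at 59.25 CPM in library 2 against 35.12 to 41.18 CPM. Gstm7 was at 0.4294 CPM in luminal library 3 and at 0 in the other luminal libraries, with 5 counts in all in basal libraries. The cause of these deviations was not tested. Without basal library 4, Prdx1 (log2 fold change 0.65, edgeR adjusted p = 0.00831), Txn1 (0.76, adjusted p = 0.00672) and Gstk1 (0.89, adjusted p = 0.0117) were called higher in luminal cells.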

How the results depend on the processing

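Over the other settings, 18 to 23 members were higher in luminal and 10 to 14 higher in basal cells (19 and 13 as reported), the median log2 fold change of the members was 0.36 to 0.58, and 93 to 100 of the related genes were called (97 as reported). Over left-out libraries the ranges were 19 to 23, 11 to 14, 0.32 to 0.56 and 86 to 97. The replicate block gave 22 luminal and 12 basal members: Prdx1, Txn1 and Gstz1 gained a call, Cat lost it, and it changed no other call among the members. Scaling by library totals alone moved the median of all genes tested from 0.05 to 0.24 and gave 23 luminal and 10 basal members, and upper-quartile factors moved it to 0.17. Of 32 called members, 28 kept call and direction in every setting, the exceptions being Gpx4, Gstp1, Keap1 and Cat. Keap1 fell to -0.29 with library totals, and Gstp1 lost its call there (adjusted p = 0.0529). Signs changed for 3 genes that were not called. The log2 fold change of Gclm was -0.0024 with no filter and -0.017 to 0.14 over left-out libraries, and that of Gsta4 was -0.16 to 0.84 over left-out libraries. That of Gstm5 was 0.018 under upper-quartile scaling, 0.078 for library totals and -0.27 to 0.092 over left-out libraries. The cause of these changes was not tested. Summing members that share at least 40% of their 51-base words, chosen after seeing the data, gave 19 luminal and 12 basal members, with Gstp1 and Gstp2 counted once. Summing by protein identity was not run, because no protein sequences were used here. Levels under 3 counts (0.158 to 0.232 CPM) could not be told from 0.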
